A study of Mus musculus with 18 samples.

Results

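Mature miRNAs that are widely used as reference RNAs in RT-qPCR, namely miR-103-3p, miR-107-3p, miR-191-5p, miR-423-3p, miR-423-5p and miR-186-5p, were followed through small RNA sequencing libraries of mouse dendritic cells (DC) and of the extracellular vesicles (EV) that these cells released. The 6 were taken by name from the miRNA part of the count table, which holds 2045 rows for 1907 mature names, and all 6 were found and had reads in each of the 18 libraries. DC were grown from C57bl/6 bone marrow in medium containing GM-CSF, a growth factor that drives myeloid differentiation. LPS-EV and LPS-DC came from cultures exposed for 24 h to LPS, an activator of DC from the outer membrane of bacteria, VitD3-EV and VitD3-DC from cultures kept for 12 days in 10 nM VitD3, the active form of vitamin D that gives DC a tolerance-promoting state, and control-EV and control-DC from untreated cultures. Each of these 6 groups had 3 biological replicates, made on different days. EV were isolated on sucrose gradients from medium conditioned in bulk, so that fewer vesicles of one kind and less RNA per vesicle cannot be told apart, nor can fewer cells of a type and less RNA per cell.

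A reference miRNA is used to scale other miRNAs between samples, which assumes that its own level does not move with the treatment or the sample type. A miRNA is cut from a hairpin precursor, and either arm of the hairpin (5p or 3p) can be loaded into an Argonaute protein, where bases 2 to 8, the seed, do most of the pairing with target mRNAs. miR-103 and miR-107 form a family hosted in introns of pantothenate kinase genes, which encode the first enzyme of coenzyme A synthesis, and the family is known for dampening insulin sensitivity in mouse liver and fat. miR-191 is made together with miR-425 from one primary transcript, and miR-423 is a hairpin of which both arms accumulate.

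The mature sequences are shown to make clear which members can be told apart by reads. They are RefSeq annotations of GRCm38.p6, the mouse build also known as mm10, written 5′ to 3′ with the seed in capitals:
miR-103-3p: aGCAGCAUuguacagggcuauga
miR-107-3p: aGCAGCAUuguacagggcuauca
miR-191-5p: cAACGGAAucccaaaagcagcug
miR-423-3p: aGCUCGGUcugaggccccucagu
miR-423-5p: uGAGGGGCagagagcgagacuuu
miR-186-5p: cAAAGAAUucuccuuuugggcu
miR-103-3p and miR-107-3p shared their seed and differed at 1 of 23 bases, G22C, counted from the 5′ end of miR-103-3p with its base first. A read that ends before base 22 fits both, so the split between these family members is uncertain. Among the 1679 mature mouse miRNAs of the sequence table, no others carried that seed. The seed of miR-423-5p occurred in 1 other miRNA, miR-6921-5p, and the seeds of miR-191-5p, miR-423-3p and miR-186-5p occurred in no other.

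miR-103-3p is encoded at chr2:131288103-131288125 (plus strand, Mir103-2, in an intron of Pank2) and at chr11:35782447-35782469 (plus strand, Mir103-1, in an intron of Pank3). Both copies have a row in the table, with 70200 and 69389 reads over all libraries, and the lower row held at least 97.2% of the reads of the higher in each library, which leaves the reads of the copies inseparable. The higher row is used here. miR-107-3p lies at chr19:34820700-34820722 (minus strand, in an intron of Pank1). miR-186-5p lies at chr3:157544285-157544306 (plus strand) in an intron of Zranb2, a splicing factor gene. miR-191-5p lies at chr9:108568325-108568347 (plus strand), within an exon of the non-coding gene 4833445I07Rik and opposite to the predicted miRNA gene Gm24083, and the authors' counting used strand. The arms of miR-423 are both cut from a hairpin in an intron of Nsrp1 on the minus strand of chromosome 11, with miR-423-5p at chr11:77078122-77078144 and miR-423-3p at chr11:77078086-77078108. The hairpin is shown because its arms are compared with each other, with the 5p arm as the first run of capitals and the 3p arm as the second:
Mir423: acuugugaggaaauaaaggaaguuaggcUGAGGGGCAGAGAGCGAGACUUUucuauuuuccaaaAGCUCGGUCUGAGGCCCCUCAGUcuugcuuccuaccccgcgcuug

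EV libraries were far shallower than DC libraries, with 33337 to 329240 miRNA reads (median 128613) in EV and 1025913 to 4247919 (median 1556283) in DC. LPS-EV replicate 2 was the shallowest, at 33337 miRNA reads. Markers of myeloid cells and DC (miR-223-3p, miR-142a-3p, miR-142a-5p, miR-155-5p and miR-21a-5p) took 31.0 to 63.1% of miRNA reads in EV and 24.6 to 65.8% in DC. In EV most of these reads were miR-21a-5p, which averaged 56577 reads per library. There miR-142a-5p averaged 665 reads, miR-142a-3p 290 and miR-155-5p 190, and miR-223-3p averaged under 100. The share in EV thus mainly describes miR-21a-5p. The 3 muscle markers (miR-1a-3p, miR-133a-3p and miR-206-3p) took 6.67 to 7.41% of miRNA reads in replicate 3 of EV and 0.362 to 0.748% in replicate 3 of DC, against at most 0.0119% and at most 0.0202% in the other replicates of EV and DC. The endothelial marker miR-126a-3p took 0.00756 to 0.119% in EV and at most 0.00306% in DC. Stromal markers reached 0.148% in EV and 0.00528% in DC, and epithelial ones 0.0270% and 0.0173%. The lymphoid marker miR-150-5p had 0 reads in EV. Replicate 3 was labelled sequencing run 2 in every group, as was VitD3-DC replicate 2, and the remaining libraries run 1, so that day and run cannot be told apart for replicate 3.

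The 6 miRNAs spanned a wide range of abundance, and their order was almost the same in EV as in DC. As share of all miRNA reads in CPM (reads scaled to a common total of miRNA reads), miR-191-5p was the most abundant, at 9089 ± 4271 CPM in EV and 6794 ± 3469 CPM in DC (mean ± SD, n = 9 each). It ranked 12 of 548 miRNA names with reads in EV and 12 of 776 in DC. miR-103-3p followed with 4055 ± 2388 CPM in EV and 4196 ± 1829 CPM in DC. miR-423-5p had 1433 ± 674 CPM in EV and 641 ± 386 CPM in DC, and miR-423-3p had 1127 ± 486 CPM in EV and 712 ± 327 CPM in DC. These arms of one hairpin thus swapped places between EV and DC, although their means differed by less than 1 SD in either. miR-186-5p had 352 ± 129 CPM in EV and 324 ± 125 CPM in DC. miR-107-3p was the scarcest, with 141 ± 103 CPM in EV and 103 ± 56.7 CPM in DC, and ranked 100 in both. Together they took 0.633 to 2.60% of miRNA reads in EV and 0.515 to 2.33% in DC.

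The number of reads behind these levels in EV differed widely between members. miR-191-5p had 234 to 2931 reads per EV library and miR-103-3p had 136 to 1177. miR-423-5p had 29 to 521 reads per EV library, miR-423-3p 25 to 280, and miR-186-5p 16 to 86. miR-107-3p had only 3 to 43, which left its EV level poorly measured. In DC the scarcest member still had 94 to 474 reads. The opposite arms of the other hairpins were nearly unread. miR-103-1-5p, miR-103-2-5p and miR-107-5p had 0 reads in EV and 1, 6 and 0 reads over the 9 DC libraries, miR-186-3p had 1 read in EV and 9 in DC, and miR-191-3p had 21 in EV and 205 in DC. miR-425-5p and miR-425-3p, from the same primary transcript as miR-191, had 71 and 52 reads in EV and 627 and 420 reads in DC.

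**Figure D1:**
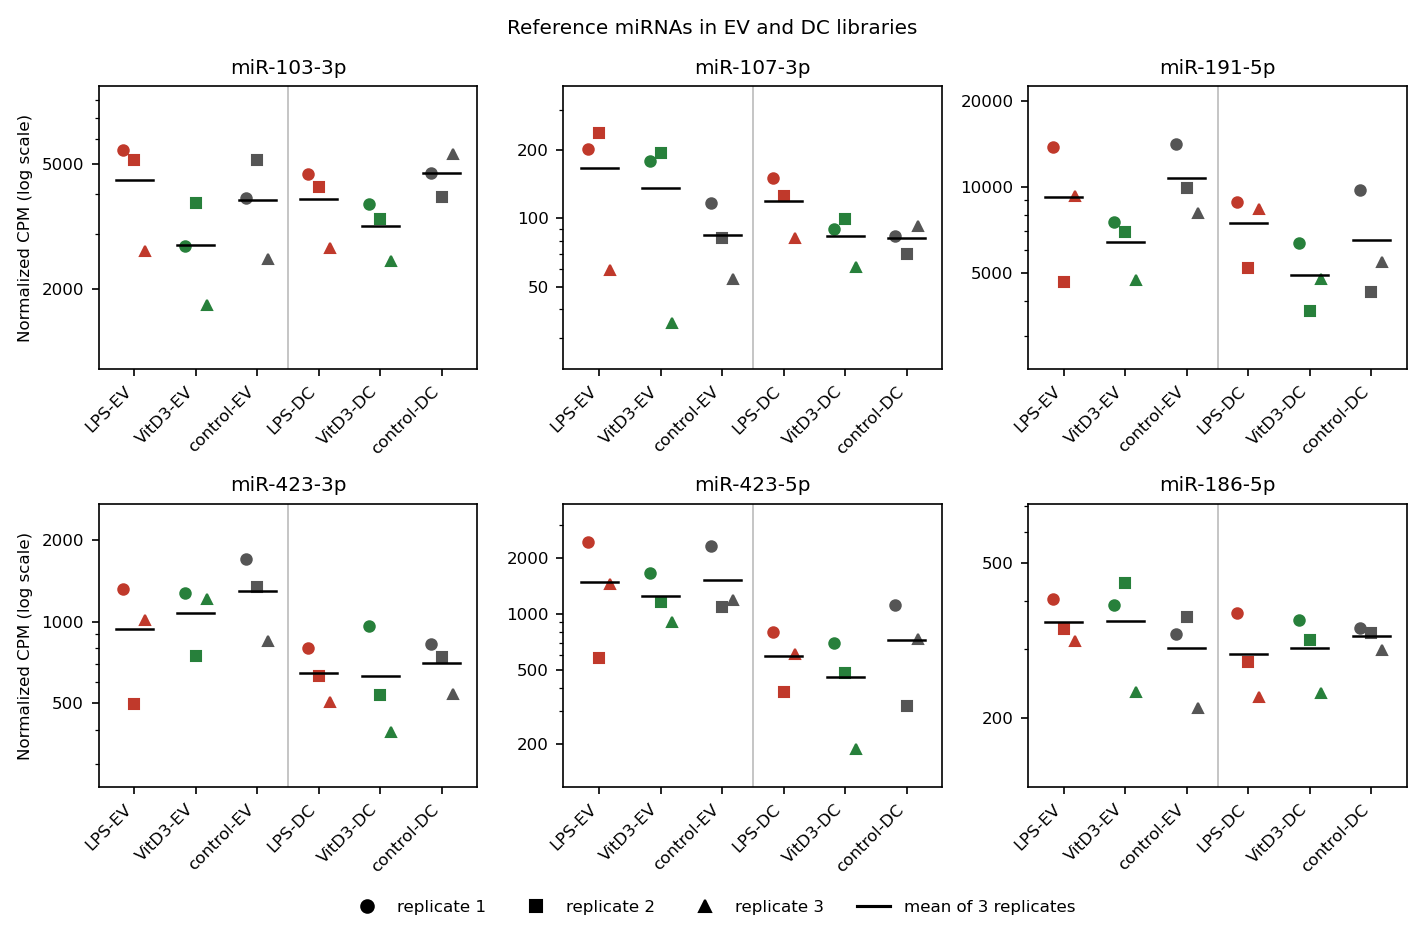
Normalized CPM of the 6 miRNAs (log axis) in each library by group, with marker shape for the replicate and a bar for the mean of 3 replicates; EV and DC were normalized separately. Groups overlap in most panels, replicate 3 is the lowest EV replicate in every group for miR-103-3p and miR-107-3p, and LPS-EV replicate 2 is the lowest EV library for miR-191-5p, miR-423-3p and miR-423-5p.

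The first comparison asked whether LPS moved the reference miRNAs in EV. None of the 6 passed the test, and their log2 fold changes ranged from -0.48 for miR-423-3p to 0.75 for miR-107-3p (edgeR quasi-likelihood test, false discovery rate, FDR, 0.711 to 0.959 over 281 miRNA rows). Over all miRNAs tested in this comparison, 1.42% passed the threshold of FDR below 0.05. Levels are normalized CPM, scaled with TMM factors (a trimmed mean over miRNAs) within the 9 libraries of EV or of DC.

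miR-103-3p had 5524, 5139 and 2651 normalized CPM in LPS-EV, against 3899, 5147 and 2484 in control-EV. The groups overlapped, and replicate 3 was the lowest in both. The log2 fold change was 0.21 (SE 0.26, 95% interval -0.31 to 0.73). miR-191-5p had 13755, 4643 and 9282 normalized CPM in LPS-EV, against 14087, 9907 and 8125 in control-EV. Only the shallow replicate 2 stood low in LPS-EV, and the log2 fold change was -0.25 (interval -0.74 to 0.25). Without LPS-EV replicate 2 it was 0.082, so its sign rested on that library.

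miR-423-5p had 2445, 575 and 1451 normalized CPM in LPS-EV, against 2308, 1090 and 1190 in control-EV, a log2 fold change of -0.079 (interval -0.68 to 0.52). Here too replicate 2 of LPS-EV was the low one, and without it the log2 fold change was 0.20. miR-423-3p had 1314, 496 and 1018 normalized CPM in LPS-EV, against 1697, 1337 and 847 in control-EV, with a log2 fold change of -0.48 (interval -1.11 to 0.15) that was -0.24 without LPS-EV replicate 2 and -0.099 without replicate 2 of all groups. miR-186-5p, with 404, 337 and 315 normalized CPM in LPS-EV against 329, 363 and 213 in control-EV, had a log2 fold change of 0.28 (interval -0.53 to 1.10). The values of these groups interleaved. miR-107-3p had 202, 238 and 59.3 normalized CPM in LPS-EV, against 117, 82.1 and 54.1 in control-EV. It was higher in 3 of 3 replicates, yet its interval of -0.35 to 1.85 spanned both no change and a change of over 2-fold. For 3 of 6 miRNAs (miR-103-3p, miR-191-5p and miR-423-5p) the whole 95% interval lay within a 2-fold change. For the other 3 a 2-fold difference was not excluded by the interval. The fit pools its estimate of spread over miRNAs, so an interval does not measure the spread of that miRNA's own 3 replicates. By replicate, the log2 differences were -0.034, -1.09 and 0.19 for miR-191-5p and 0.083, -0.91 and 0.28 for miR-423-5p.

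VitD3 gave the lowest FDR of a member against control, and it concerned miR-191-5p in EV. miR-191-5p had 7556, 6941 and 4722 normalized CPM in VitD3-EV, against 14087, 9907 and 8125 in control-EV. Every VitD3-EV library lay below every control-EV library, with a log2 fold change of -0.72 (SE 0.25, 95% interval -1.22 to -0.22), lower in 3 of 3 replicates. The unadjusted p of edgeR was 0.00551 and the FDR 0.0704, which missed the threshold, as did those of the other 5, while 7.12% of all miRNAs passed. The FDR was 0.0229 without LPS-EV replicate 2, which shares the estimate of the spread, and 0.00209 without VitD3-EV replicate 2. Leaving out replicate 2 of all groups gave 0.000809, and scaling by the total of miRNA reads, which moved the median of all rows by -0.32, gave 9.39e-05. Over all alternatives tried it ranged up to 0.702.

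miR-103-3p had 2732, 3761 and 1779 normalized CPM in VitD3-EV, against 3899, 5147 and 2484 in control-EV. It was lower by a like amount in 3 of 3 replicates, although the groups overlapped, with a log2 fold change of -0.48 (interval -1.01 to 0.043, FDR 0.376 by edgeR). Scaled by the total of miRNA reads in place of TMM, it passed at -0.87 with an FDR of 0.0271. miR-423-3p had 1273, 747 and 1210 normalized CPM in VitD3-EV, against 1697, 1337 and 847 in control-EV. miR-423-5p had 1670, 1161 and 907 normalized CPM in VitD3-EV, against 2308, 1090 and 1190 in control-EV. Both arms overlapped between groups and had log2 fold changes of -0.26, with intervals within 2-fold. miR-186-5p had 389, 442 and 233 normalized CPM in VitD3-EV, against 329, 363 and 213 in control-EV, a log2 fold change of 0.22 (interval -0.63 to 1.07). miR-107-3p had 178, 194 and 34.9 normalized CPM in VitD3-EV, against 117, 82.1 and 54.1 in control-EV, with a log2 fold change of 0.43 and the widest interval, -0.75 to 1.62. Its replicate 3 in VitD3-EV rested on 3 reads.

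LPS-EV against VitD3-EV was the treatment contrast in EV with the most changed miRNAs, at 14.6% of those tested, and again none of the 6 passed. miR-103-3p came nearest, with a log2 fold change of 0.69 (SE 0.27, 95% interval 0.16 to 1.22), higher in LPS-EV in 3 of 3 replicates, at an FDR of 0.0662 by edgeR. Without LPS-EV replicate 2 its FDR was 0.0341, and without replicate 2 of all groups 0.00572, while the range over all alternatives reached 0.609. It also passed with DESeq2 (0.63, FDR 0.0251), with the miRNA total (1.06, FDR 0.00261) and with TMM factors over all RNA classes (1.06, FDR 0.0168). miR-191-5p, with a log2 fold change of 0.47 (interval -0.030 to 0.97), was higher in LPS-EV in 2 of 3 replicates. The other 4 had log2 fold changes between -0.21 and 0.32.

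The same contrasts in DC, where reads were plentiful, also called no member. For LPS-DC against control-DC the log2 fold changes ranged from -0.31 for miR-103-3p to 0.48 for miR-107-3p (FDR 0.580 to 0.897 by edgeR), and 0.877% of all miRNAs passed. miR-103-3p had 4641, 4232 and 2705 normalized CPM in LPS-DC, against 4680, 3923 and 5387 in control-DC. Its difference lay in replicate 3 alone, and without control-DC replicate 3 the log2 fold change was 0.0012. miR-107-3p had 150, 125 and 82.3 normalized CPM in LPS-DC, against 83.6, 69.8 and 92.6 in control-DC, so the family members pointed in opposite directions without either passing. The 95% interval lay within 2-fold for 4 of 6 miRNAs, all but miR-107-3p and miR-423-5p.

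For VitD3-DC against control-DC, all 6 fitted log2 fold changes were below 0, with a median of -0.29 against 0.026 over all miRNAs tested, and 4.39% of all miRNAs passed but none of the 6 (lowest FDR 0.257 by edgeR). With TMM factors computed over all RNA classes, which moved the median of all rows by 0.60, 4 of these signs turned. miR-103-3p had 3716, 3350 and 2457 normalized CPM in VitD3-DC, against 4680, 3923 and 5387 in control-DC. The groups did not overlap, with a log2 fold change of -0.59 (SE 0.29, 95% interval -1.22 to 0.036). miR-423-5p had 699, 478 and 187 normalized CPM in VitD3-DC, against 1114, 321 and 734 in control-DC, a log2 fold change of -0.62 (interval -1.46 to 0.23) that rested on replicates 1 and 3. Without replicate 2 of all groups it passed, at -1.27 with an FDR of 0.0398. miR-186-5p had 356, 317 and 232 normalized CPM in VitD3-DC, against 340, 331 and 299 in control-DC, and its log2 fold change of -0.13 was the second smallest after the -0.015 of miR-107-3p. miR-191-5p had 6379, 3683 and 4748 normalized CPM in VitD3-DC, against 9759, 4286 and 5459 in control-DC, lower in 3 of 3 replicates with a log2 fold change of -0.35 (interval -0.93 to 0.23).

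Between LPS-DC and VitD3-DC, 7.02% of all miRNAs and none of the 6 passed. miR-191-5p had 8825, 5213 and 8401 normalized CPM in LPS-DC, against 6379, 3683 and 4748 in VitD3-DC. It was higher in LPS-DC in 3 of 3 replicates, with a log2 fold change of 0.60 (SE 0.27, interval 0.024 to 1.19, FDR 0.198 by edgeR). This value depended on the scaling, as it was 1.22 and passed with the miRNA total (FDR 0.0188), and was 0.079 with TMM factors over all RNA classes. The treatment effect in EV was also tested against that in DC. For LPS none of the 6 differed, at FDR 0.974 to 1.00, and 0 of 482 rows passed in edgeR, with 21 rows (4.36%) at an unadjusted p under 0.05. For VitD3 none of the 6 differed either, at an FDR of 1.00, and 0.207% of all rows passed. With standard errors of 0.47 to 0.69 these differences were measured too loosely to call the effects alike. The comparisons above share their control libraries or treated libraries, so they do not count as separate evidence.

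**Figure D2:**
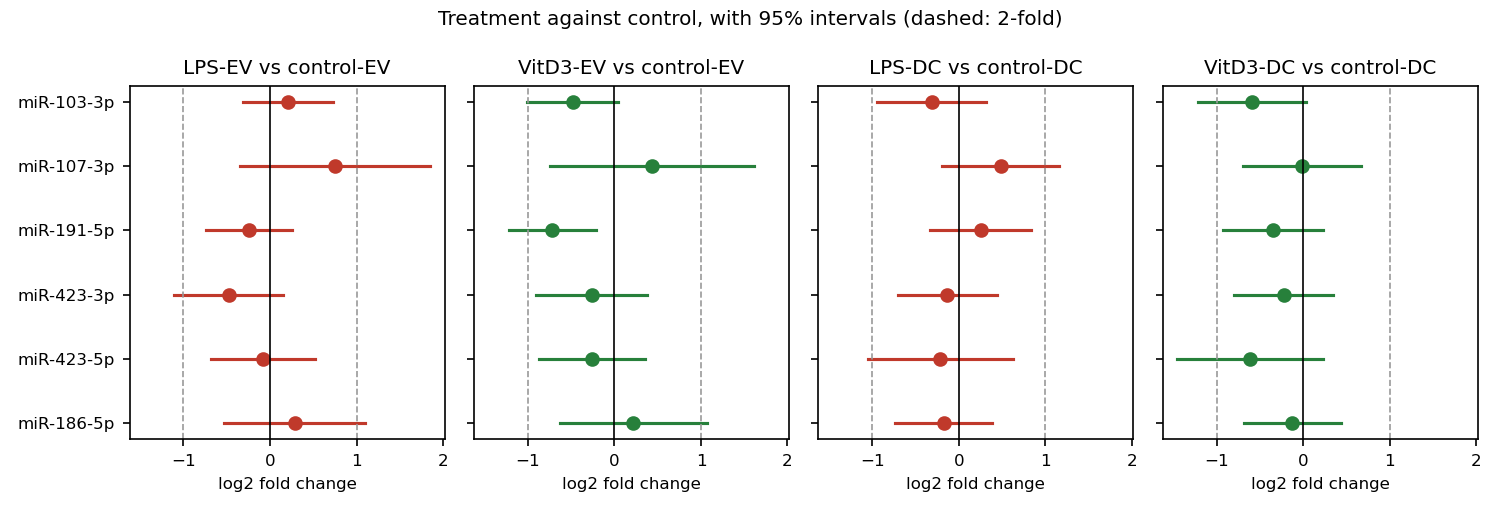
Log2 fold change of each miRNA (points) with its 95% interval (bars) for LPS or VitD3 against control, in EV and in DC; dashed lines mark a 2-fold change. The interval for miR-191-5p in VitD3-EV, -1.22 to -0.22, is the only one of the 24 that does not cross 0, and those of miR-107-3p in EV are the widest.

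The second question was whether the reference miRNAs had the same level in EV as in the DC of the same culture. It was taken over the 9 cultures that gave both libraries and on one TMM scale for all 18. The fit treats the 9 cultures as independent, although 3 share each day. Its standard errors, intervals and FDR therefore do not allow for differences between days. By the paper's account the medium held serum and conditioned medium of another cell line, and its EV were removed mostly but not fully. EV libraries were also made from less RNA. The part of these in the differences was not tested. Of the 6, 3 passed, where 23.4% of all miRNAs did (9.96% were higher in EV and 13.5% lower, of 482 rows). miR-103-3p and miR-186-5p were lower in EV, and miR-423-5p was higher in EV. miR-191-5p, miR-107-3p and miR-423-3p did not pass. The median over all rows was itself -0.32 on this scale, so the values are also given relative to it.

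miR-103-3p was lower in EV than in DC in 9 of 9 cultures, by a log2 difference between -1.74 and -0.26. The fitted log2 fold change was -0.77 (SE 0.18, 95% interval -1.13 to -0.41, FDR 0.00167 by edgeR), which is 0.59 of the level in DC. In replicate 3, the log2 differences were -0.83 for LPS, -1.03 for VitD3 and -1.74 for control. In the 5 culture pairs sequenced wholly in run 1 its mean was -0.62 and in the 3 pairs of run 2 it was -1.20, below 0 in every one. Without replicate 3 the log2 fold change was -0.52 with an FDR of 0.124.

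miR-423-5p was higher in EV in 8 of 9 cultures. The log2 difference was 0.88, -0.012 and 0.46 for LPS, 0.61, 0.85 and 1.70 for VitD3, and 0.52, 0.96 and 0.070 for control in replicates 1, 2 and 3. Only the shallow LPS-EV replicate 2 fell at or under its DC partner, and the fitted log2 fold change was 0.67 (SE 0.19, interval 0.29 to 1.06, FDR 0.00884 by edgeR). Without VitD3-DC replicate 3, the DC library with the lowest miR-423-5p, it was 0.49 with an FDR of 0.0764, and without replicate 1 it was 0.61 with an FDR of 0.105. In the pairs of run 1 the mean difference was 0.59, with 4 of 5 above 0, and in those of run 2 it was 0.74, with 3 of 3 above 0.

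miR-186-5p was lower in EV in 8 of 9 cultures, with a fitted log2 fold change of -0.53 (SE 0.19, interval -0.93 to -0.13) and an FDR of 0.0482 by edgeR, just inside the threshold. The call was lost in 22 of 30 alternatives and in another, scaling by the miRNA total, its sign turned to 0.098, whereas with replicates or libraries left out the log2 fold change stayed between -0.68 and -0.41. The log2 fold change of miR-191-5p was 0.44 with the miRNA total. On the TMM scale it was -0.18 (interval -0.54 to 0.17), within 1.5-fold of the DC level by that interval. miR-423-3p had 0.089 (interval -0.30 to 0.48) and miR-107-3p -0.39 (interval -0.94 to 0.16). The last of these depended on replicate 3, in which the log2 differences of miR-107-3p were -1.23, -1.31 and -1.36 for LPS, VitD3 and control, whereas in replicates 1 and 2 they lay between -0.55 and 0.52. The muscle markers were also at 6.67 to 7.41% of EV reads in replicate 3, and their part in these differences was not tested.

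The scale decided several of these values. Scaling by the total of miRNA reads moved the median of all rows by 0.58, DESeq2 size factors by 0.32 and TMM over all classes by 0.22, and the share of calls that were higher in EV was 78.1, 69.3 and 63.0% under these, against 42.5% in the reported fit. Under the total of miRNA reads miR-186-5p, miR-191-5p and miR-107-3p changed sign and miR-423-3p passed at 0.72, while miR-103-3p, at -0.14, did not pass under any of the 3. miR-423-5p remained higher in EV and passed in each, at 1.30, 1.02 and 0.85. A change of scale moves all rows by nearly the same amount, so values relative to their median could hardly depend on it. On that measure miR-423-5p lay 0.95 to 1.04 above the median over the 4 scales, and miR-423-3p 0.36 to 0.46 above. miR-191-5p lay 0.086 to 0.18 above it, and miR-107-3p between -0.10 and -0.042. miR-186-5p lay between -0.25 and -0.16, and miR-103-3p between -0.50 and -0.39.

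**Figure D3:**
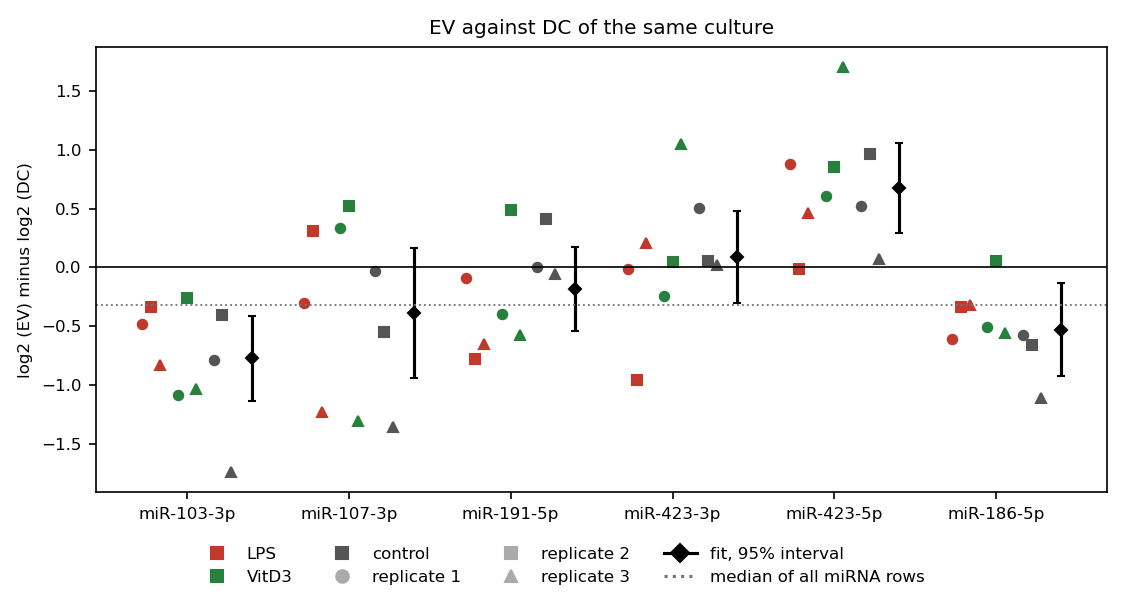
Log2 level in EV minus that in DC of the same culture for each miRNA, colored by treatment with marker shape for the replicate; black diamonds give the fitted difference with its 95% interval and the dotted line the median of all miRNA rows at -0.32. All 9 cultures lie below 0 for miR-103-3p and 8 of 9 above 0 for miR-423-5p, while miR-423-3p, miR-191-5p and miR-107-3p spread across 0.

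Ratios between members need no scaling. miR-423-5p was higher in EV than in DC relative to each of the other members in at least 8 of 9 cultures. Relative to miR-103-3p, miR-423-5p was higher in EV than in DC in 9 of 9 cultures, where the log2 ratio of miR-103-3p to miR-423-5p averaged 1.40 in EV and 2.85 in DC. The ratio of miR-191-5p to miR-423-5p averaged 2.65 in EV and 3.51 in DC on the log2 scale, again lower in 9 of 9. The ratio of miR-423-5p to miR-186-5p averaged 1.98 in EV and 0.80 in DC, higher in 9 of 9. Of 15 pairs of members, 4 had one direction in all 9 cultures, and each of the 4 involved miR-423-5p. miR-103-3p was lower in EV relative to miR-191-5p and to miR-423-3p in 8 of 9 cultures each. The share of such pairs among other miRNAs was not computed. miR-103-3p against miR-186-5p differed little, with 3.37 in EV and 3.65 in DC and a difference of -0.28 ± 0.32 (SD, n = 9).

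The fourth of these pairs was that of the miR-423 arms. Because both arms come from one precursor, their ratio compares products of the same transcript. The ratio of 3p to 5p reads was 0.538, 0.864 and 0.702 in LPS-EV, against 1.00, 1.66 and 0.835 in LPS-DC. It was 0.763, 0.647 and 1.33 in VitD3-EV, against 1.38, 1.13 and 2.10 in VitD3-DC, and 0.736, 1.22 and 0.713 in control-EV, against 0.744, 2.31 and 0.738 in control-DC. Every EV library had the lower ratio of its culture, although in control replicates 1 and 3 by very little. The mean log2 ratio was -0.32 ± 0.42 in EV and 0.28 ± 0.63 in DC (SD, n = 9). The 5p arm had more reads in 7 of 9 EV libraries, and the 3p arm had more in 6 of 9 DC libraries, in LPS-DC replicate 1 by 2521 against 2519 reads. The difference was -0.60 ± 0.38, a ratio 1.51-fold lower in EV, with p = 0.00391 in an exact two-sided sign-flip permutation test, the smallest that 9 pairs can give. That p treats the 9 cultures as independent, although 3 share each day. Averaged by day, the difference was -0.59, -0.89 and -0.32, lower in EV on 3 of 3 days, where the exact sign-flip p cannot go below 0.25. The difference was -0.73 in the 5 pairs of run 1 and -0.32 in the 3 pairs of run 2, lower in EV in all of these, where the smallest possible p were 0.0625 and 0.25.

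**Figure D4:**
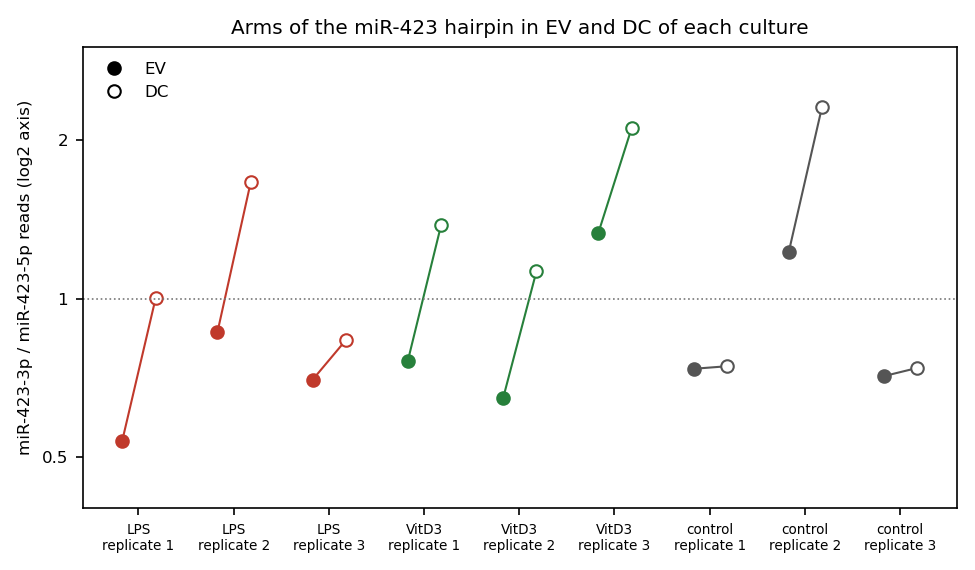
Ratio of miR-423-3p to miR-423-5p reads (log2 axis) in EV (filled) and DC (open) of each culture, joined by a line and colored by treatment; the dotted line marks equal reads. The EV point lies below the DC point in 9 of 9 cultures, with differences near 0 in control replicates 1 and 3.

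Stability over libraries was described by the SD of the log2 normalized CPM, with no test. miR-186-5p was the steadiest member, with an SD of 0.34 in EV, where it ranked 6 of 249 miRNA names from the lowest SD, 0.26 in DC, where it ranked 12 of 420, and 0.41 over all 18 libraries. Its highest EV library was 2.01 times its lowest, and its highest DC library 1.64 times its lowest. miR-423-3p had an SD of 0.53 in EV and 0.41 in DC, miR-103-3p 0.56 in EV and 0.37 in DC, and miR-191-5p 0.57 in EV and 0.49 in DC. These 3 were alike in EV. miR-107-3p varied most in EV, at 0.86 with a 5.13-fold range on few reads, but had an SD of 0.39 in DC. miR-423-5p had 0.65 in EV and 0.79 in DC, where it ranked 282 of 420 and spanned 5.94-fold.

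On the TMM scale the 6 as a group were less spread than the median miRNA, but in EV not less than abundant miRNAs. Their median SD was 0.57 in EV, against 0.74 over all miRNA names tested and 0.56 over the 56 names that averaged at least 100 reads. In DC it was 0.40, against 0.66 over all and 0.55 over the 119 abundant names. Over all 18 libraries it was 0.60, against 0.91 over all and 0.66 over the 103 abundant names. This order depended on the scaling. With the miRNA total, the members' median SD in DC was 0.74, against 0.72 over all and 0.64 over the abundant names. In EV it was 0.69, against 0.81 over all and 0.63 over the abundant names. Over all 18 libraries it was 0.78, against 1.03 over all names and 0.73 over the abundant ones. In EV the members fell below the abundant names with DESeq2 size factors (0.53 against 0.55) and with TMM over all classes (0.60 against 0.67). Scarce RNAs spread more through counting error alone, which is why the abundant names are the closer comparison. In EV, however, miR-107-3p and miR-186-5p themselves averaged 15.8 and 44.7 reads, under the minimum of 100 for that group.

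**Figure D5:**
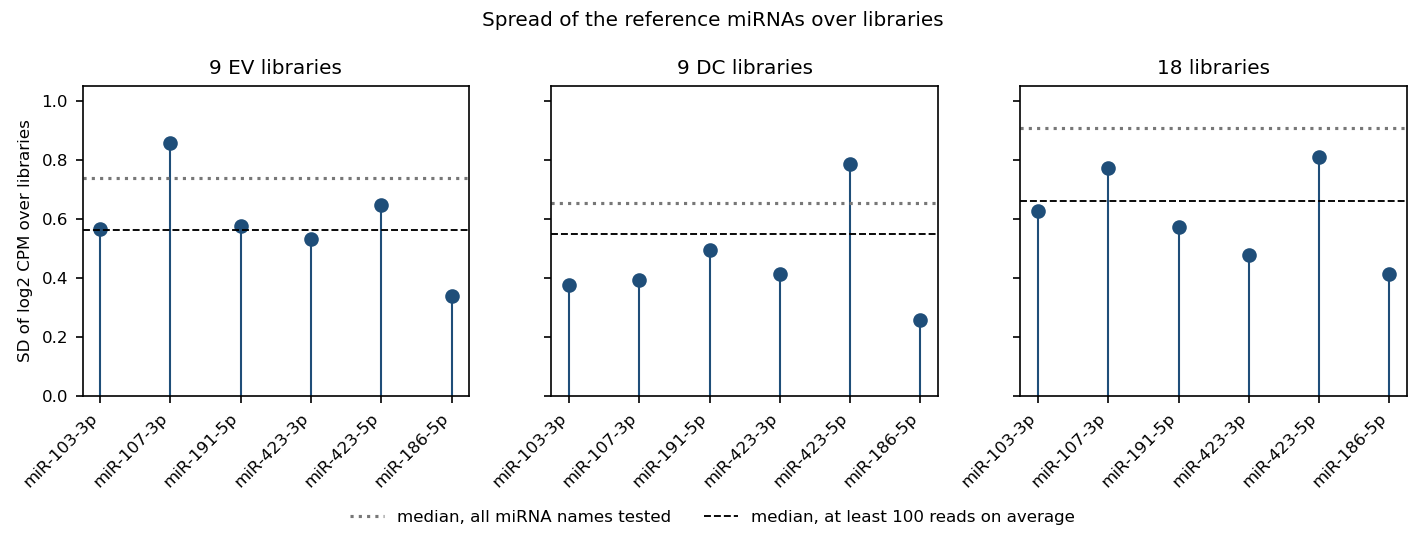
SD of log2 normalized CPM of each miRNA over the 9 EV, the 9 DC and all 18 libraries, with the median of all miRNA names tested (dotted) and of names averaging at least 100 reads (dashed). miR-186-5p has the lowest SD in each panel (0.34, 0.26 and 0.41), and miR-423-5p exceeds both medians in DC.

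In EV the members differed more between replicate means than between treatment means, which was not counted over all miRNAs. For all 6, the range of the 3 replicate means exceeded the range of the 3 treatment means in EV, most for miR-423-5p with 1.22 against 0.25 on the log2 scale and least for miR-191-5p, where both were 0.73. Replicate 3 was the lowest for miR-103-3p, miR-107-3p and miR-186-5p, and replicate 2 for miR-191-5p, miR-423-3p and miR-423-5p. In DC the same held for 4 of 6, while for miR-103-3p the treatment means ranged over 0.56 and the replicate means over 0.39, and for miR-107-3p over 0.50 and 0.42. The muscle markers and the sequencing run set replicate 3 apart, and the shallow library lay in replicate 2. The part of these in the replicate means was not tested.

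Pairs of members tracked each other to different degrees. In EV the tightest ratio was that of miR-191-5p to miR-423-5p, with an SD of 0.31, although the same ratio had an SD of 0.56 in DC. In DC the ratio of miR-423-3p to miR-186-5p had the lowest SD, 0.24, followed by miR-103-3p to miR-186-5p with 0.27. Over all 18 libraries miR-103-3p to miR-186-5p was the tightest, at 0.37. miR-103-3p and miR-107-3p, which differ by 1 base, had a ratio with an SD of 0.68 in EV and 0.37 in DC. miR-107-3p to miR-423-3p was the loosest in EV, at 1.22.

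Outside the 6, the miRNAs whose log2 ratio to a member had the lowest SD over the 18 libraries were sought among 52 names averaging at least 100 reads per EV library. miR-186-5p was tracked by miR-140-3p with an SD of 0.24 and by let-7g-5p with 0.25. miR-103-3p was tracked by let-7g-5p with 0.40 and miR-101b-3p with 0.41. For miR-191-5p these were miR-361-3p with 0.40 and miR-92a-3p with 0.47, and for miR-423-3p miR-25-3p with 0.41 and miR-92a-3p with 0.42. miR-107-3p had no close companion, with 0.52 to miR-30e-5p and 0.56 to miR-93-5p. miR-423-5p had the loosest, with 0.60 to miR-92a-3p and 0.63 to miR-501-3p. Among the 56 names of that abundance with members included, the lowest SD over 18 libraries was that of miR-340-5p at 0.27, then miR-140-3p at 0.33, miR-26a-5p at 0.34, miR-181a-5p at 0.36 and miR-25-3p at 0.39. miR-423-3p ranked 12 of these 56, miR-191-5p 25, miR-103-3p 33 and miR-423-5p 43, whereas miR-186-5p and miR-107-3p fell under the read minimum.

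A further list of 12 miRNAs often used as references (among them miR-16-5p, let-7a-5p, miR-25-3p and miR-26a-5p) gave a like picture. All 12 were tested, and none passed against control in EV or in DC, where 0.877 to 7.12% of all miRNAs did. Between LPS-EV and VitD3-EV 1 of 12 passed, where 14.6% of all miRNAs did. It was miR-24-3p, which was lower in LPS-EV with a log2 fold change of -0.85 (FDR 0.0118 by edgeR). Between EV and DC, where 23.4% of all miRNAs passed, 1 of 12 was lower in EV and 1 higher on the TMM scale. let-7a-5p was lower with a log2 fold change of -0.72 (FDR 0.00143 by edgeR), and miR-320-3p was higher with 0.74 (FDR 0.0262). The median of all rows on that scale was -0.32. The median SD of the 6 was 0.57 in EV and 0.40 in DC, and that of the 12 was 0.57 in EV and 0.45 in DC. The steadiest was let-7a-5p in EV, at 0.39, and miR-16-5p in DC, at 0.14. The largest SD in EV was that of miR-425-5p, at 1.02, on only 0 to 13 reads per EV library.

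What the choice of reference does to a reported change was read from miR-155-5p, an LPS-induced miRNA of myeloid cells that is itself no reference. Relative to miR-107-3p, miR-155-5p was 2.41-fold higher in LPS-EV than in control-EV, and relative to miR-423-3p it was 5.94-fold higher, as mean over 3 replicates. Relative to the geometric mean of the 6 it was 4.06-fold higher, with an SD of 1.30 on the log2 scale (n = 3). It was higher in 3 of 3 replicates whichever member it was set against. The gap between references rested on replicate 2, with the shallow LPS-EV library, where miR-155-5p was 3.21-fold higher relative to miR-107-3p and 24.0-fold higher relative to miR-423-3p. Without replicate 2 the folds were 2.08 and 2.95, and in replicate 3 alone their order turned, at 2.38 and 2.18.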

How the data were processed

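Small RNA was sequenced by the authors from EV and DC (RiboZero depletion, NEBNext small RNA libraries). Per the labels and methods, adapters were removed by cutadapt 1.8, alignment to mm10 used gsnap, and HTSeq 0.6.1p1 counted by strand against miRBase. The authors deposited whole-number read counts per RNA and library, without normalization. All reads summed to 410968 to 3053774 per EV library and 12427662 to 42065263 per DC library. Intervals are those of the fits, which pool the estimate of spread over miRNAs.

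The members and lists were chosen with earlier results of these data known. Where a name repeated, the row with most reads was used. miRNA rows reaching 10 reads, summed over a fit's libraries, were tested with edgeR 4.0.16 in R 4.3.3 (quasi-likelihood, two-sided, TMM within miRNAs, prior count 2 for log values), with Benjamini-Hochberg adjustment over all rows, and a call at FDR below 0.05. Replicate number was a block within EV and within DC, as in the study's model for day, and the culture was the block for EV against DC. Residuals of same-numbered libraries had correlations from 0.206 up to 0.835 in EV, where all 9 pairs exceeded 0.1, and from 0.0391 up to 0.751 in DC, where 8 did. Ratios of reads had 0.5 added to each count. Of 18 pairs of replicate libraries, 0 were identical. Named RNAs were the members, the other arms and miR-425, 12 other references, the 2 nearest miRNAs of each member, the 5 steadiest, and miR-155-5p, chosen after its values were known. Alternatives were DESeq2 1.42.0, the likelihood ratio test, other scalings, filters and blocks, and leaving out replicates or libraries. The fits were tested on simulated data.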

Additional observations from a re-analysis of the deposited data

How the results depend on the processing

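No member passed for LPS against control, in EV or DC, or for either difference of effects, under any alternative. Of all rows, 0 to 19 passed over the alternatives for LPS-EV and 0 to 63 for LPS-DC. The largest counts came at an unadjusted p (6.76% and 13.8% of all rows). With such shares, 0 of 6 does not set the members apart. For the differences of effects, the share of all rows under the alternatives is not given here. For VitD3-EV against control-EV, 2 passed with scaling by the class total (8.19% of all rows did), 1 at an unadjusted p (15.7% of all rows), and 1 when replicate 2, LPS-EV replicate 2 or VitD3-EV replicate 2 was left out (35, 34 and 19 rows in all). For LPS-EV against VitD3-EV, 2 passed with the class total (14.9% of all rows) or TMM over all classes (13.5%), 1 with DESeq2 (39 rows in all) or at an unadjusted p (22.4%), and 2, 2 and 1 without those same libraries (41, 43 and 33 rows in all). For LPS-DC against VitD3-DC, 1, miR-191-5p, passed with the class total (7.02% of all rows) and 1 at an unadjusted p (22.8%). For VitD3-DC against control-DC 1 did without replicate 2 (19 rows in all). For EV against DC, 1 of 3 calls was left with DESeq2 (78 rows in all), DESeq2 size factors in edgeR (18.3% of all rows), TMM over all classes (16.8%) or no replicate block (19.1%), 0 if over 2-fold was also asked (16.4%), and 1 to 3 when replicates or libraries were left out (57 to 120 rows in all). Without the replicate block, 0, 3 and 7 miRNA rows passed for LPS-EV, VitD3-EV and LPS-EV against VitD3-EV, where 4, 20 and 41 did with it, and 0, 0 and 8 for the same contrasts in DC, where 4, 20 and 32 did. Of the calls, 70.0% were higher for VitD3-EV, 43.9% for LPS-EV against VitD3-EV, 80.0% for VitD3-DC and 25.0% for LPS-DC against VitD3-DC, where the class total gave 26.1, 64.3, 45.5 and 75.0% and TMM over all classes 72.7, 63.2, 88.9 and 5.13%.

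Signs turned for values near 0 and for some further from it. The latter included, in the reported fit, -0.53 for miR-186-5p, a call, and -0.39 for miR-107-3p for EV against DC. They also included -0.35 for miR-191-5p in VitD3-DC and -0.31 for miR-103-3p in LPS-DC. For EV against DC, miR-191-5p was 0.16 with DESeq2 and with its size factors, 0.44 with the class total and 0.021 with filterByExpr, miR-107-3p was 0.22 and miR-186-5p 0.098 with the class total. For VitD3-DC, miR-107-3p was 0.027 without the replicate block, and with TMM over all classes miR-107-3p was 0.56, miR-191-5p 0.29, miR-423-3p 0.37 and miR-186-5p 0.46. For VitD3-EV, miR-186-5p was -0.15 with the class total. For LPS-DC, miR-423-3p was 0.0068 with the class total and 0.033 with at least 1 read. For LPS-EV with TMM over all classes, miR-191-5p was 0.047 and miR-423-5p 0.21. With replicates or libraries left out, log2 fold changes ran from -0.58 to 0.082 (miR-191-5p) and -0.40 to 0.20 (miR-423-5p) in LPS-EV, -0.57 to 0.074 (miR-423-3p) in VitD3-EV, -0.53 to 0.049 (miR-103-3p), -0.22 to 0.052 (miR-423-3p) and -0.57 to 0.15 (miR-423-5p) in LPS-DC, -0.28 to 0.25 (miR-107-3p) in VitD3-DC, and -0.68 to 0.085 (miR-107-3p) and -0.087 to 0.19 (miR-423-3p) for EV against DC. The causes were not tested.

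The median SD of the members was 0.69 in EV, 0.74 in DC and 0.78 over all libraries with the class total, 0.53 in EV and 0.52 over all with DESeq2 size factors, 0.50 in DC with TMM over all classes, and 0.50 to 0.58 in EV, 0.37 to 0.44 in DC and 0.51 to 0.64 over all with a replicate left out. The miR-423 arm difference was -0.74 to -0.46 with replicates or a library left out. By exact sign-flip permutation tests it was -0.73 (p = 0.0625) and -0.32 (p = 0.25) within runs 1 and 2, and -0.60 (p = 0.25) over the means of 3 days. These tests cannot pass at that size and were chosen after the data were seen, as were the miR-155-5p values without replicate 2 and the other medians of SD by scaling. Over 726 alternative values of single members, 645 kept their direction and side of the threshold. Depth limits miR-107-3p in EV.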
